A study of Homo sapiens with 6 samples.

Results

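MHC class I molecules carry peptides from inside the cell to its surface, where CD8 T cells and natural killer cells read them. The transcripts described here are 9 genes of that pathway, chosen by symbol among the 60835 distinct symbols of the deposited count table: the heavy chains HLA-B, HLA-C, HLA-E and HLA-F, the light chain B2M, the peptide transporter subunits TAP1 and TAP2, the loading chaperone TAPBP (tapasin) and the immunoproteasome subunit PSMB9. Each was found on 1 line, and 9 of 9 passed the filter on low counts. The choice used no measured value, but earlier results of these data were known when it was made.

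RNA came from SMAD4-knockout cells of PANC-1, an established human pancreatic cancer line of epithelial origin. Cells of 1 group were transfected with wild-type (WT) SMAD4 and cells of the other with SMAD4 carrying R272K, a change of arginine to lysine, and both were taken on day 3. SMAD4 joins the receptor-activated SMADs of TGF-β and BMP signalling in the nucleus. Each group had 3 libraries of polyadenylated RNA. Both groups share the knockout and an introduced SMAD4, and knockout cells without it were not analysed here, and the labels do not say whether the knockout line was 1 clone. Replicates are not described as separate cultures, and the spread behind each p-value is that between these samples, which may be technical.

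In the pathway, the proteasome cuts proteins into peptides, and interferon-induced subunits such as PSMB9 replace constitutive ones to form the immunoproteasome. TAP1 and TAP2 together pump the peptides into the endoplasmic reticulum, where tapasin holds an empty heavy chain with B2M until a peptide binds. Interferons induce most of these genes through the interferon-stimulated response element (ISRE) and the IRF factors that bind it, and NLRC5 acts as a transactivator of class I genes.

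SMAD4 transcript stood at 83.4, 93.6 and 89.0 CPM (read counts relative to the library total after TMM scaling) in WT replicates 1 to 3 and at 40.6, 45.6 and 43.6 CPM with R272K. This was a log2 fold change (R272K over WT, as throughout) of -1.03 (SE 0.0749, edgeR adjusted p = 6.28e-06), so the form of SMAD4 and its amount cannot be told apart in any comparison below. Total counts were 14776148 to 17706201 per library. WT replicate 1 was the deepest library and lay at the end of the leading principal component, which held 32.2% of the variance. That component placed WT replicates 1 to 3 at -31.3, -9.56 and -0.13 and R272K replicates 1 to 3 at 15.6, 11.3 and 14.1. It thus divided the groups as well as setting WT replicate 1 apart from the other WT libraries. Longer genes had lower ratios of WT replicate 1 to the other WT libraries (Spearman's rho -0.41, given as a description across genes). The 7 genes listed for epithelial and ductal carcinoma cells summed to 3825 to 4753 CPM with WT and 4638 to 4958 CPM with R272K. They were led by the keratin KRT8 (2237 and 2795 CPM, 0.32, adjusted p = 0.0661). The list also holds the mesenchymal marker VIM (vimentin, 854 and 842 CPM, -0.02, adjusted p = 0.927), so the sum is not from epithelial genes alone. Of these 7, CDH1 (E-cadherin) rose, from 2.59 to 6.47 CPM (1.33, adjusted p = 0.00174), and EPCAM was at 3.65 and 4.78 CPM (0.39, adjusted p = 0.338). KRT18 was at 0.11 (adjusted p = 0.583). KRT19 (-0.10, adjusted p = 0.633) and KRT7 (-0.13, adjusted p = 0.866) were on the lower side. Of the leukocyte genes, CD2 and FCGR3A were at 0 counts and PTPRC at 8 counts over the WT and 7 over the R272K libraries. CD14 (135 counts over each group's libraries, 2.79 and 2.96 CPM) and ITGAM (262 and 252 counts) passed the filter on low counts. The summed level of the 10 leukocyte genes was 7.77 to 9.57 CPM with WT and 8.05 to 10.04 with R272K, most of it from ITGAM. The 6 endothelial genes summed to 5.30 to 7.93 and 5.67 to 6.56 CPM. The 8 fibroblast genes summed to 146 to 155 CPM with WT and 231 to 252 CPM with R272K, nearly all of it COL1A1. COL1A1 was called higher (148 and 241 CPM, 0.70, adjusted p = 3.51e-05). Of the other fibroblast genes, only COL1A2 passed the filter on low counts (0.45 and 0.87 CPM, adjusted p = 0.449). The part of these marker differences in the class I values was not tested.

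Upstream sequences are shown because members of the pathway share regulatory motifs there that link them to interferon and NF-κB signalling. The RefSeq promoter table (GRCh38.p14) held 8 of the 9 members; HLA-E is named only. In the 170 bases from position -200 to -31 before the transcript start, given 5′ to 3′ on the strand of the gene, capitals mark matches on either strand to the interferon-stimulated response element (ISRE, the letters GAAA, NN and GAAA in a row), to the NF-κB consensus or to CCAAT. Some matches overlap, and those of HLA-B to the NF-κB consensus lie on both strands.
HLA-B (chr6:31357210-31357379, minus strand): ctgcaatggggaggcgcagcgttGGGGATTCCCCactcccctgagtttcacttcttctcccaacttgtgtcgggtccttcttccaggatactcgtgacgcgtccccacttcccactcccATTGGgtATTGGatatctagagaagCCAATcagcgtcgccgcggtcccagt
HLA-C (chr6:31272123-31272292, minus strand): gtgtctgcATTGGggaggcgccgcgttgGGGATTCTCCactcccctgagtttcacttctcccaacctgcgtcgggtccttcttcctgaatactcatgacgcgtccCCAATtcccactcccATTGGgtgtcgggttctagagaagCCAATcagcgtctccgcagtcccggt
B2M (chr15:44711317-44711486, plus strand): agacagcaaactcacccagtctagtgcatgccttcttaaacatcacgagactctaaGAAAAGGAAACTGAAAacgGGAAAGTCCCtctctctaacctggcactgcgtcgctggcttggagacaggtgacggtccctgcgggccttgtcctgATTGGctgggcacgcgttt
Aligned with gaps over 250 upstream bases each, HLA-B and HLA-C were identical over 89% of the alignment, against 50.9% for HLA-B and B2M.

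The same ISRE letters lay upstream of TAP1, TAP2, TAPBP and HLA-F, shown here as 30 bases around the match.
TAP1 (chr6:32853816-32853845, minus strand): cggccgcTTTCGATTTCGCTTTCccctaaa
TAP2 (chr6:32838778-32838807, minus strand): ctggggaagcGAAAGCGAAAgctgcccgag
TAPBP (chr6:33314079-33314108, minus strand): ccctttggagGAAAGTGAAAGTGAAAggag
HLA-F (chr6:29723268-29723297, plus strand): ctccccagagTTTCTCTTTCtctcccaacc
In TAP1, TAPBP and B2M 2 matches overlap. Over 250 upstream bases, the ISRE letters were found in 5 of the 8 members and in 3.02% of all 35116 promoters in the table. The NF-κB consensus was in 5 members (HLA-B, HLA-C, TAP1, TAPBP and B2M) and 9.96% of promoters, CCAAT in 6 members and 32% of promoters, and the cyclic AMP response element core TGACG in 5 members and 21.2%. The SMAD palindrome GTCTAGAC, in 0.182% of promoters, and the interferon-gamma activated site TTCNNNGAA, in 6.57%, were in none of the 8 windows. These are letter matches only, with no binding data. The ISRE letters searched are a strict form, so a promoter without them may still hold an ISRE that differs from them. This holds for HLA-B and HLA-C, whose windows contain tttcacttct in lower case. TAP1 has 2 starts in the table, of which the one further upstream was used. It lies 488 bases from the start of PSMB9, which runs the other way.

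Levels between genes were compared in TPM, the length-scaled abundance deposited by the authors. B2M was the most abundant member in each library, from 958 to 1058 TPM, which put its mean above 99.3% of tested genes. HLA-E, a non-classical heavy chain that presents signal peptides of other class I molecules to natural killer cells, followed at 279 to 335 TPM. TAPBP came next at 168 to 240 TPM, with no overlap between these neighbours over the 6 libraries.

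TAP1 (128 to 156 TPM) and HLA-C (114 to 146 TPM) overlapped, so their order was not resolved. HLA-B followed at 60.2 to 93.7 TPM. TAP2 (29.2 to 33.4 TPM) and PSMB9 (25.8 to 36.1 TPM) overlapped in turn, and HLA-F was the lowest at 4.98 to 7.41 TPM. The TAP1 to TAP2 ratio was 4.44 ± 0.0529 with WT and 4.49 ± 0.183 with R272K (SD, n = 3 each), although the subunits form a heterodimer. TAP2 shares part of its exons with another gene on the same strand. Reads could be lost there, so the TAP2 level and this ratio are uncertain. HLA-G, which is restricted mostly to placenta, had 2 counts over the WT libraries and 1 over the R272K libraries.

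Comparing R272K with WT cells, 0 of the 9 members passed the test (edgeR's quasi-likelihood test, adjusted p below 0.05 over 15911 genes), where 1.21% of tested genes did. With DESeq2 1 member was called, HLA-B, and with limma-voom 0. An unadjusted p under 0.05 was seen for 3 of 9, HLA-B and HLA-E on the lower side and TAPBP on the higher, against 14.3% of tested genes (7.09% lower and 7.18% higher). The libraries of the groups did not overlap for 5 of 9, against 21.4% of tested genes (10.4% lower and 10.9% higher): HLA-B, HLA-E and HLA-F were lower and TAP2 and TAPBP higher in each R272K library than in any WT library. The median log2 fold change was -0.06 over the members and 0.00 over all tested genes. Within the members, the estimates of the heavy chains and B2M were below 0 and those of TAP1, TAP2, TAPBP and PSMB9 above it, but only HLA-B, HLA-E and TAPBP had 95% intervals that left out 0.

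**Figure D1:**
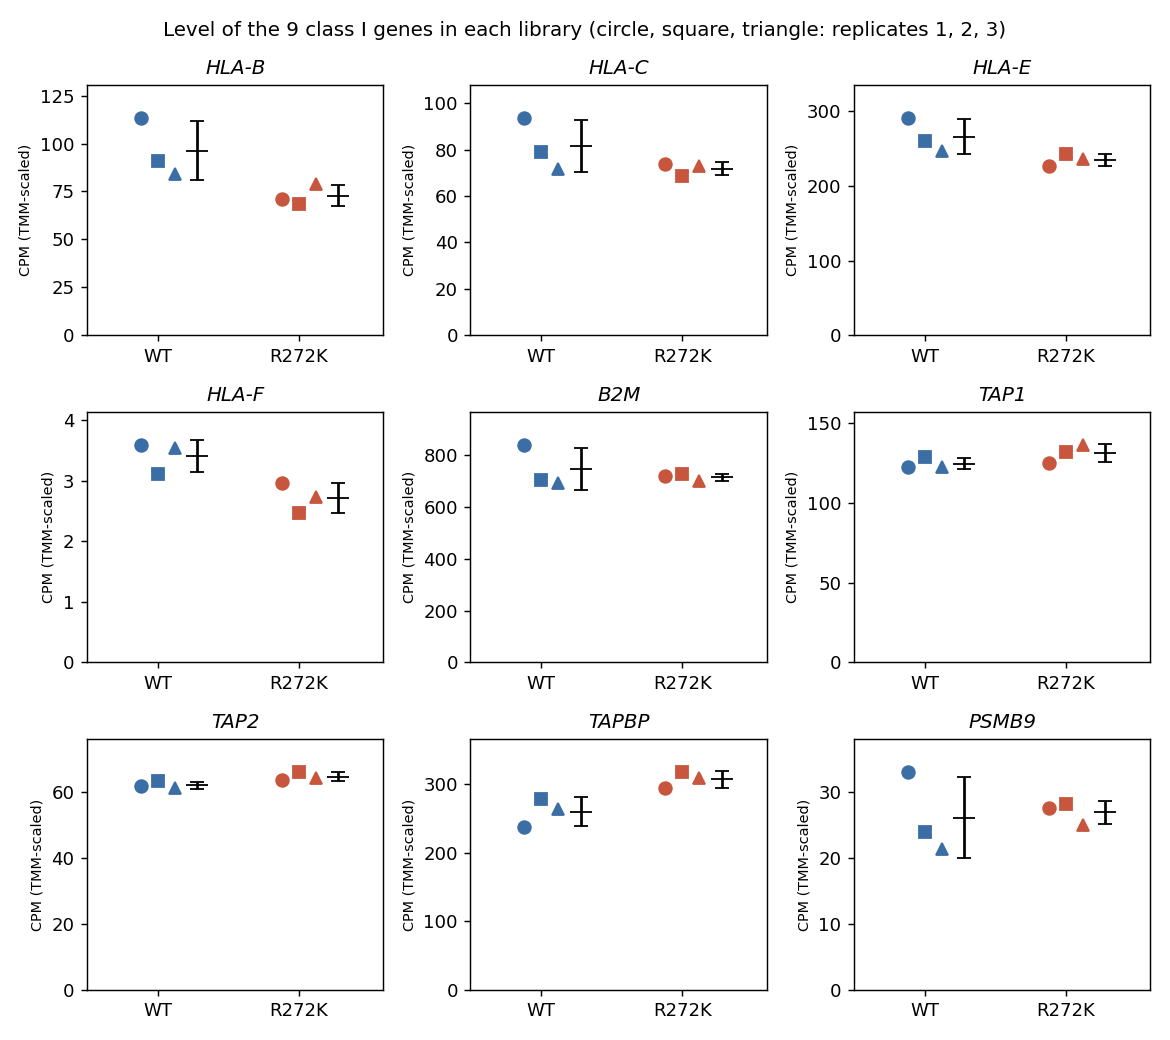
CPM on TMM-scaled library sizes for each of the 9 genes (vertical axes from 0) in the 3 WT and 3 R272K libraries; symbols are replicates, and the black mark and bar give mean and SD. HLA-B, HLA-E and HLA-F are lower and TAP2 and TAPBP higher in each R272K library than in any WT library, while WT replicate 1 (circles) is the highest library for 6 of the 9 genes.

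HLA-B, a classical heavy chain that presents peptides to CD8 T cells, was at 114, 91.1 and 84.3 CPM in the WT libraries and 71.0, 68.4 and 78.8 CPM with R272K. Its lowest WT library was above its highest R272K library, with WT replicate 1 highest. The log2 fold change was -0.41 (SE 0.101, 95% interval -0.62 to -0.19, adjusted p = 0.0786). Without WT replicate 1 the estimate was closer to 0 and the gene was called (-0.27, adjusted p = 0.00406), in a fit that called 2.42% of genes lower. Without WT replicate 3 it was also called (-0.50, adjusted p = 0.0164, 0.95% of genes called lower), and with each library's trend with gene length removed it was called at -0.40 (adjusted p = 0.0268, 1.89% of genes called lower). It was called with DESeq2 (adjusted p = 0.0142, 0.836% of genes called lower), with the replicate number as a block (adjusted p = 0.0252, 0.779%) and with no filter on low counts (adjusted p = 5.65e-05, 0.674%). Leaving out WT replicate 2 or any 1 R272K library gave adjusted p-values of 0.159 to 0.348.

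HLA-C, the classical heavy chain that is the main ligand of killer cell immunoglobulin-like receptors, was at 93.8, 78.9 and 71.8 CPM with WT and 73.6, 68.5 and 73.0 CPM with R272K. These ranges overlapped, and the log2 fold change was -0.19 (SE 0.0901, 95% interval -0.38 to 0.01, adjusted p = 0.374). HLA-C depended on the library that stood apart: its estimate was -0.07 without WT replicate 1 (adjusted p = 0.597).

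HLA-E gave 291, 259.8 and 246 CPM with WT and 226, 242 and 237 CPM with R272K, without overlap. Its log2 fold change was -0.18 (95% interval -0.33 to -0.03, adjusted p = 0.271), and -0.11 without WT replicate 1 (adjusted p = 0.161). HLA-F, a non-classical heavy chain found partly as an open form without peptide, rested on 37 to 63 counts per library. It was at 3.59, 3.11 and 3.54 CPM with WT and 2.95, 2.46 and 2.74 CPM with R272K, without overlap (-0.33, SE 0.19, 95% interval -0.74 to 0.08, adjusted p = 0.459). Sequence shared between HLA genes, and the difference between the alleles of a cell line and the reference, could divide or lose reads, so the values of single HLA genes are uncertain.

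B2M, the invariant light chain that classical heavy chains need for stable surface expression, was at 841, 707 and 693 CPM with WT and 719, 727 and 699.7 CPM with R272K. WT replicate 1 alone lay above the rest, and the other 5 libraries spanned a narrow range. The log2 fold change was -0.06 (SE 0.0742, 95% interval -0.22 to 0.10, adjusted p = 0.749), and its sign turned to 0.03 without that library.

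**Figure D2:**
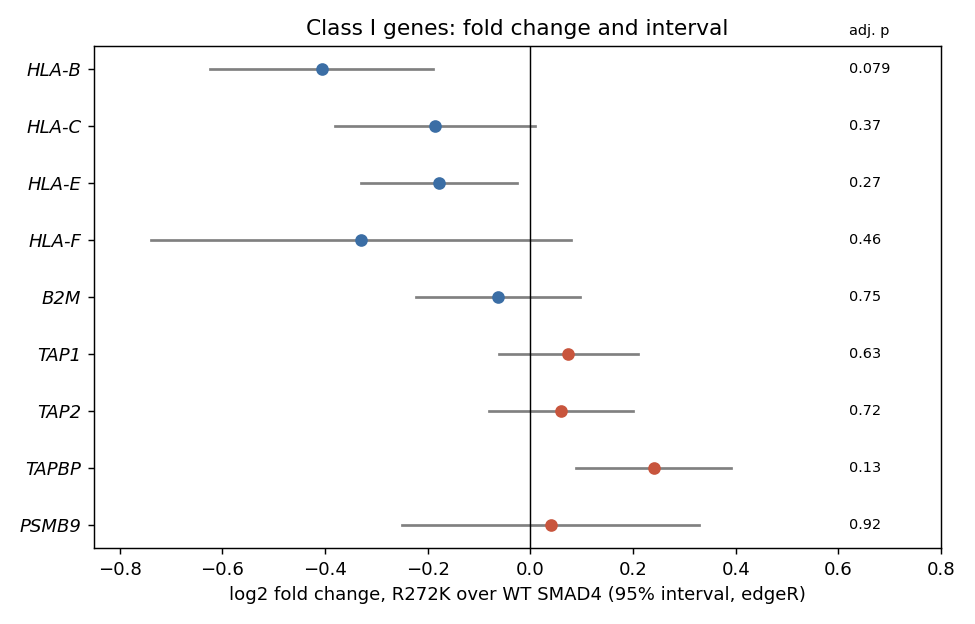
Log2 fold change of R272K over WT SMAD4 (horizontal axis) with its 95% interval from edgeR for the 9 genes; adjusted p-values stand at the right. Points of the heavy chains and B2M lie left of 0 and those of TAP1, TAP2, TAPBP and PSMB9 right of it, and no adjusted p is below 0.05.

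The transporter subunits differed little between groups. TAP1 was at 123, 129 and 122 CPM with WT and 125, 132 and 136 CPM with R272K, in overlapping ranges (0.07, SE 0.0628, 95% interval -0.06 to 0.21, adjusted p = 0.634). TAP2 had closely spaced values, 61.8, 63.3 and 61.3 CPM with WT and 63.7, 66.2 and 64.4 CPM with R272K. These did not overlap, but the difference was 0.06 on the log2 scale (SE 0.0649, 95% interval -0.08 to 0.20, adjusted p = 0.723).

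TAPBP encodes tapasin, which bridges empty class I molecules to the transporter and favours binding of high-affinity peptides. WT libraries held 238, 279 and 264 CPM of it and R272K libraries 294, 318 and 309.55 CPM. All R272K libraries were above all WT libraries, and WT replicate 1 was the lowest. The log2 fold change was 0.24 (SE 0.0698, 95% interval 0.09 to 0.39, adjusted p = 0.133). TAPBP was called without WT replicate 1 (0.18, adjusted p = 0.00838, 2.94% of genes called higher) and with the length trend removed (0.24, adjusted p = 0.0212, 2% of genes called higher).

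PSMB9 replaces the constitutive subunit PSMB6 in the immunoproteasome. It was at 33.0, 23.9 and 21.4 CPM with WT and 27.6, 28.2 and 24.9 CPM with R272K, and the WT libraries lay on both sides of the R272K ones. The log2 fold change was 0.04 (SE 0.134, 95% interval -0.25 to 0.33, adjusted p = 0.922), and the sign depended on the library left out: 0.25 without WT replicate 1 (adjusted p = 0.105) and -0.09 without WT replicate 3 (adjusted p = 0.746).

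WT replicate 1 lay at the edge of the range for several members, and their lengths are given beside this. In CPM, WT replicate 1 was the highest of the 6 libraries for 6 members (the 4 heavy chains, B2M and PSMB9) and the lowest for TAPBP. The length by which the authors divided, relative to the median tested gene, was 0.44 for HLA-F, 0.54 for HLA-C, 0.67 for B2M, 0.73 for HLA-E, 0.77 for PSMB9 and 0.80 for TAP1, against 1.02 for HLA-B, 1.18 for TAPBP and 1.77 for TAP2. On the log2 scale, WT replicate 1 differed from the mean of the other WT libraries by 0.55 for PSMB9, 0.37 for HLA-B, -0.03 for TAP1 and -0.01 for TAP2. For HLA-F, the shortest member, it differed by 0.11. The part of length in the values of single members was not tested beyond the fit with its trend removed. Removing the length trend took HLA-C from -0.19 to -0.13 and HLA-E from -0.18 to -0.15, with HLA-B at -0.40.

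**Figure D3:**
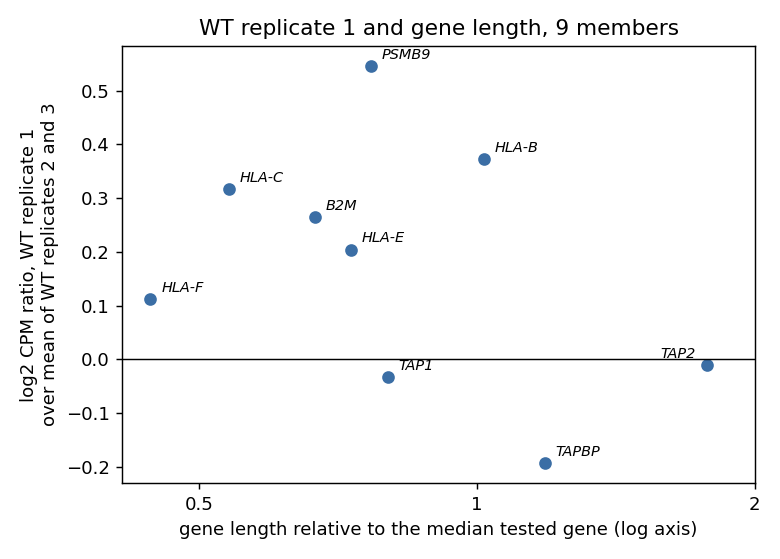
Each point is 1 of the 9 genes: gene length relative to the median tested gene (log axis) against the log2 CPM ratio of WT replicate 1 to the mean of WT replicates 2 and 3. PSMB9 (0.55), HLA-B (0.37) and HLA-C (0.32) stand highest and TAPBP (-0.19) lowest.

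Ratios of partner transcripts within a library do not depend on how libraries are scaled. A library's trend with gene length can still enter a ratio of genes of unlike length, and its part was not tested. The summed TPM of the member heavy chains HLA-B, HLA-C, HLA-E and HLA-F was 0.55, 0.566 and 0.54 of the TPM of B2M in the WT libraries and 0.486, 0.488 and 0.518 in the R272K libraries. Transcripts of these 4 heavy chains together were fewer than those of B2M in each library, and the ratio was lower in each R272K library than in any WT library, WT replicate 1 included. The PSMB9 to PSMB6 ratio was 0.0596, 0.0508 and 0.0519 with WT and 0.0653, 0.0651 and 0.0658 with R272K, also without overlap. PSMB6 itself gave a log2 fold change of -0.22 (adjusted p = 0.318), with 156 ± 23.4 CPM in WT and 134 ± 9.31 CPM in R272K libraries (SD, n = 3 each). With the length trend removed, PSMB6 was at -0.14 and PSMB9 at 0.07. The PSMB8 to PSMB5 ratio (0.154 ± 0.00252 and 0.147 ± 0.00953) and the PSMB10 to PSMB7 ratio (0.0143 ± 0.00201 and 0.0176 ± 0.00465) overlapped between groups. These ratios are given as descriptions, with no test.

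**Figure D4:**
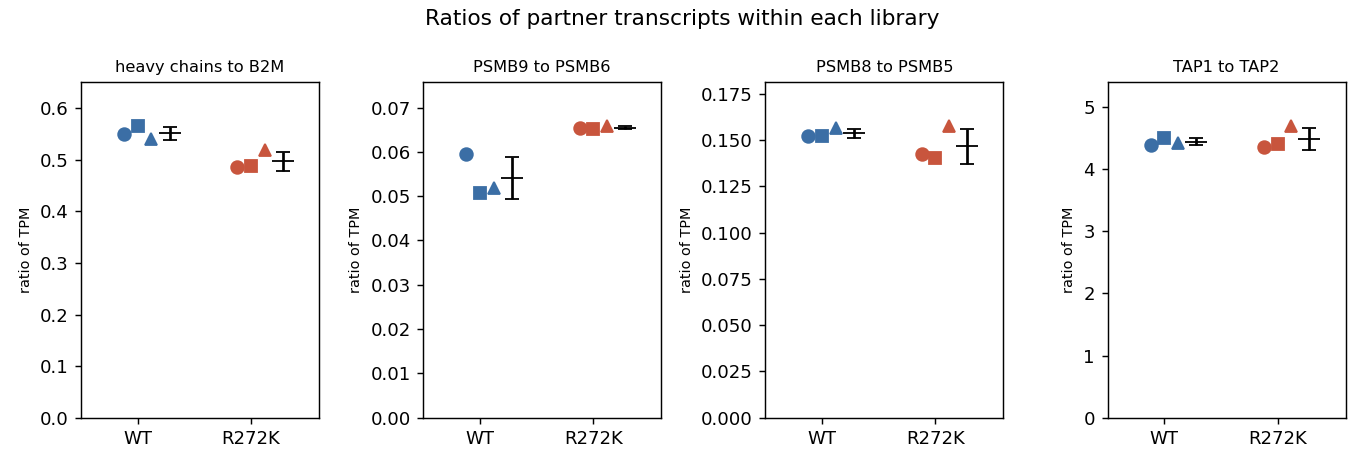
Ratio of TPM between partner transcripts (vertical axes from 0) in each WT and R272K library; symbols are replicates and the black mark and bar give mean and SD. The heavy chain to B2M ratio is 0.54 to 0.566 with WT and 0.486 to 0.518 with R272K, and the TAP1 to TAP2 ratio overlaps between groups.

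Other genes of the pathway were taken from 7 lists holding 81 genes, of which 67 were tested. Among these, 1 fell, 0 rose and 66 were not called, against 0.528% of all tested genes called lower and 0.685% higher, and their median log2 fold change was 0.01. At an unadjusted p under 0.05 there were 11 of 67, 8 lower and 3 higher, where 14.3% of all tested genes had such a p (7.09% lower and 7.18% higher).

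The called gene, IRF7, belongs to the list of 20 transcription factors and cofactors of class I genes (19 not called, median -0.03). In that list 5 of 20 had an unadjusted p under 0.05, 3 lower and 2 higher, against 14.3% of all tested genes. IRF7, an interferon-induced factor that drives interferon genes, fell from 23.4, 23.1 and 18.8 CPM to 13.0, 14.8 and 17.1 CPM (-0.54, SE 0.12, adjusted p = 0.0487). It lost its call in 9 of 17 alternatives, among them each fit without WT replicate 2 or 1 of the R272K libraries, with an adjusted p of up to 0.281. NLRC5 was at 6.04, 6.89 and 7.14 CPM with WT and 5.78, 4.46 and 4.69 CPM with R272K, without overlap, and was not called (-0.42, SE 0.153, adjusted p = 0.226). RFX5, a subunit of the RFX complex that binds class I and class II promoters, lay on the higher side at 73.2, 79.0 and 75.9 CPM with WT and 95.2, 90.9 and 86.3 CPM with R272K, without overlap (0.26, 95% interval 0.11 to 0.40, adjusted p = 0.0964). It was called higher without WT replicate 1 (0.23, adjusted p = 0.00939) and with the length trend removed (0.26, adjusted p = 0.0152). Of its complex partners, RFXAP was lower without overlap (-0.30, adjusted p = 0.414) and RFXANK was at 0.09 (adjusted p = 0.809). Of the NF-κB subunits listed, RELA (-0.20, adjusted p = 0.188) was lower and NFKB1 (0.16, adjusted p = 0.311) higher, both without overlap. Apart from these and IRF7, NLRC5, RFX5 and RFXAP, the genes of this list overlapped between groups. Over all tested genes, 21.4% did not overlap. RELA was called lower without WT replicate 1 (-0.17, adjusted p = 0.0357, 2.42% of genes called lower). IRF1, which binds the ISRE of class I genes, stood at 73.1 ± 4.94 and 77.8 ± 1.77 CPM (SD, n = 3 each; 0.09, adjusted p = 0.599).

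None of the other lists held a gene called by edgeR, and their counts at an unadjusted p under 0.05 stand beside a share of 14.3% over all tested genes. Of 9 tested class I-like molecules, 2 had an unadjusted p under 0.05. RAET1L, a stress ligand of the natural killer cell receptor NKG2D, had the smallest (1.43 and 0.572 CPM, -1.33, SE 0.397, adjusted p = 0.145). It rested on 69 and 26 counts per group and has close paralogs that could share reads. MICB, another NKG2D ligand, was at 139 and 155 CPM (0.16, adjusted p = 0.26). Of 8 loading and trimming factors, 0 had an unadjusted p under 0.05, with the aminopeptidase ERAP1 at 71.2 and 77.6 CPM (0.12, adjusted p = 0.496) and the tapasin-related TAPBPL at 1.6 and 2.17 CPM (0.43, adjusted p = 0.51). Among 6 immunoproteasome and activator genes 1 had an unadjusted p under 0.05, the catalytic subunit PSMB8 (45.1 and 39.8 CPM, -0.18, adjusted p = 0.349); the assembly factor POMP was at -0.08 (adjusted p = 0.69).

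The constitutive proteasome core had 2 of 14 at an unadjusted p under 0.05, the same share as over all genes: PSMB6 and PSMB7 (-0.26, adjusted p = 0.228), and 7 cytosolic peptidases had 1, LAP3 (92.7 and 82.0 CPM, -0.18, adjusted p = 0.279), with THOP1 at -0.10 (adjusted p = 0.577). MHC class II genes, which serve CD4 T cells and need CIITA, were near the floor: 3 of 13 passed the filter. These were HLA-DMA (34 and 41 counts over each group's libraries), the invariant chain CD74 (35 and 43 counts; 0.35, adjusted p = 0.697) and CIITA (55 and 77 counts; 0.54, adjusted p = 0.369).

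**Figure D5:**
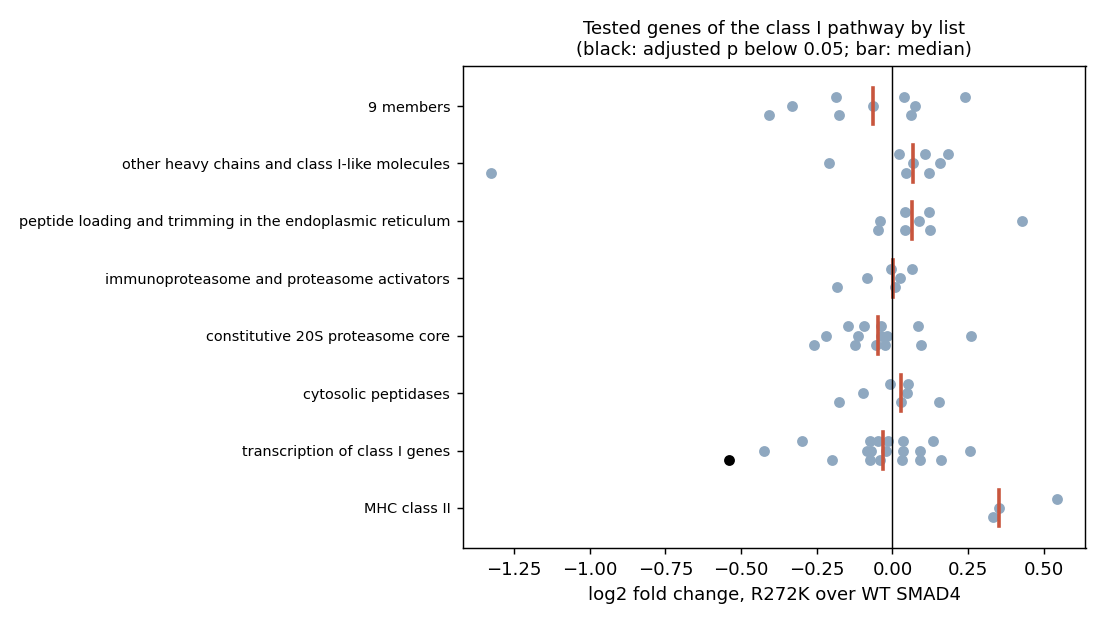
Log2 fold change of R272K over WT SMAD4 (horizontal axis) for the tested genes of the 9 members and of the 7 pathway lists; the red bar is each list's median. The black point, IRF7 (-0.54) among the transcription factors, has an adjusted p below 0.05, and the grey-blue points do not.

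By position, 8 of the 9 members lie on chromosome 6 and B2M on chromosome 15. In the deposited coordinates (GRCh38) the members on chromosome 6 span 29722775 to 33314284, from HLA-F to TAPBP. The other 107 tested genes in that span had 0 calls, 14 with an unadjusted p under 0.05 (13.1%, 8 lower and 6 higher) and a median of -0.03. PSMB9 (32844136 to 32859851, plus strand) contains the whole span of TAP1 (32845209 to 32853816, minus strand), but in GENCODE release 29 their exons shared 0 bases. PSMB9 shared 139 of 3072 exonic bases with PSMB8 on the opposite strand, and HLA-F shared 535 of 4342 with its antisense transcript HLA-F-AS1. HLA-F also shared 701 with AL645939.1 and 257 with RPL23AP1, both on the opposite strand. Also on the opposite strand, HLA-B shared 542 of 3051 with AL671883.2 (0 counts) and TAP1 456 of 4805 with PSMB8-AS1 (29 counts over the 6 libraries). How the counting treated strand is not stated in the labels, so reads from such shared bases cannot be told apart. On the same strand, HLA-B and HLA-C shared 35 exonic bases, and PSMB9 shared 174 with PSMB8-AS1. TAP2 shared 2064 of 6390 exonic bases (32.3%) with AL669918.1 on the same strand, which had 0 counts. Whether TAP2 lost reads through these bases was not tested.

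The 5 other genes, of 14485 with a mean of at least 1 CPM, whose course over the 6 libraries was nearest to the mean of the members were GRK6, PSMC4, FKBP4, ARHGEF1 and RAB28. Their root mean square difference from it was 0.0118 to 0.0152 on the centred log2 CPM scale. They share with the members' mean, through this choice, a highest value in WT replicate 1 and little difference between groups. That mean averages members with opposite courses: WT replicate 1 lay at 0.45 for HLA-B and -0.25 for TAPBP on the centred scale. The 5 genes are thus near the mean and not near each member.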

How the data were processed

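The submitters' processing notes name HTSeq 0.10.0, HISAT2 2.1.0, fastp 0.23.0, SAMtools and GRCh38, without settings or an annotation release. Raw read counts per symbol were deposited, and the authors also deposited TPM, a length-scaled signal made from the same counts. Of 62710 lines, 1875 repeat the value of 1 of 453 symbols under another identifier, and each of the 60835 symbols was used once.

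Genes kept by edgeR's filter (minimum count 10, minimum total 15) numbered 15911. Group was the only term in a robust two-sided quasi-likelihood test of the TMM-scaled counts of all 6 libraries, and p-values were adjusted by Benjamini-Hochberg over all genes. The SE is the size of the log2 fold change divided by the square root of F. Members and lists were chosen with earlier results of these data known. Named genes were SMAD4, the members, the PSMB partners and NLRC5 and IRF1; in each list the called genes (at most 6), otherwise the 2 with the smallest p; the most abundant marker of each list; and the 5 genes with the most similar course. RFX5, RFXAP, RFXANK, RELA, NFKB1, HLA-DMA, VIM, CDH1, EPCAM, KRT18, KRT19, KRT7, CD2, FCGR3A, PTPRC and CD14 were named after their values were seen. Some genes of the rule and lists are not reported here and were left out of the lists' counts and the heavy chain sum. Alternatives were other scalings, filters, tests and units, removal of the length trend, and each library left out. Replicates of a group differed by more than counting noise (chi-square over degrees of freedom 1.84 or more). In counts simulated for this comparison over 15911 genes, 76% of 50 genes with a 1.5-fold change and 86% of 50 with a 2-fold change were called, and 12 of 191 calls were false. The simulation did not copy the shared departure of WT replicate 1. Member log2 fold changes, from -0.41 to 0.24, were smaller than any change simulated, so these shares do not describe the members. Software was edgeR 4.0.16, DESeq2 1.42.0 and limma 3.58.1 in R 4.3.3, and biopython 1.88 and matplotlib 3.10.9 in Python 3.11.15.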

Additional observations from a re-analysis of the deposited data

How the results depend on the processing

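Over 17 alternatives, HLA-B kept its direction in all and was called lower in 6, and TAPBP kept its direction in all and was called higher in 2; the other 7 members were called in none. Members called lower numbered 1 with no filter, DESeq2, the length trend removed and the replicate number as a block, and members called higher 1 with the length trend removed; each count ranged from 0 to 1 when a library was left out. Replicate numbers did not pair the libraries (correlations of same-numbered deviations -0.06, -0.01 and -0.01). Other pathway genes called lower numbered 0 with upper quartile scaling, a filter of 1 CPM in 3 libraries, limma-voom, log2(TPM + 1) or log2(TPM + 0.1), 2 with no filter, and 0 to 2 with a library left out; 1 (RFX5) was called higher with the length trend removed, and 0 to 1 with a library left out. Leaving out a library turned the sign of 5 log2 fold changes. B2M ranged from -0.12 to 0.031, GRK6 from -0.12 to 0.0015 and FKBP4 from -0.11 to 0.0076, each turned without WT replicate 1. PSMB9 ranged from -0.090 to 0.25, turned without WT replicate 2 (-0.02) or 3 (-0.090), and PSMB10 from -0.24 to 0.21, turned without WT replicate 3 (-0.06) or R272K replicate 2 (-0.24). With HLA-B and HLA-C only, chosen after seeing the data in place of a planned subset not reported here, the heavy chain to B2M ratio was 0.219 with WT and 0.191 with R272K. The cause of these shifts was not tested. Over all genes, 193 were called, 279 by DESeq2, 262 with the replicate block, 474 with no filter, 619 with the length trend removed, 104 and 101 on log2 TPM, and 55 to 875 with a library left out (875 without WT replicate 1). Depth limits the precision for genes with few counts, HLA-F, RAET1L, TAPBPL, PSMB10 and the class II genes among them.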
